A study of Mus musculus with 6 samples.

Results

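The genes described here are 40 interferon-stimulated effector genes, a list of names of genes that interferon induces, looked up by symbol in the deposited table. All 40 were among its 15912 genes, and all 40 had enough reads to be tested. The libraries came from microglia, the resident macrophages of the brain, of the hippocampus of male C57BL/6 mice that were 3 months old. All of these mice had received lipopolysaccharide (LPS, a bacterial cell wall component) at 1 mg/kg into the peritoneum over 4 days, and were perfused 24 h after the final dose. About 10000 live CD11b+ CD45-low cells were sorted, and the neutral lipid dye BODIPY parted lipid-droplet-low from lipid-droplet-high cells. Each gate, called BODIPY-low and BODIPY-high below, had 3 libraries numbered 1 to 3, and each sample pooled the hippocampi of 2 mice. Both gates came from LPS-treated mice, so no value below is a response to LPS, and libraries of saline-treated mice were not analysed here.

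Type I interferons bind a receptor on the cell surface, and the kinases bound to it start a signal to the nucleus. Transcription factors then bind the interferon-stimulated response element (ISRE) in the promoters of effector genes. The effectors sense, bind or degrade viral RNA, block viral entry and replication, or modify other proteins. Microglia express such genes after infection, after LPS, and in a subset of cells in aging and disease.

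Total reads per library ran from 34899413 to 39220494, and the deposited normalized counts were reads divided by a size factor per library. The 10 microglial markers checked were present in every library, with Csf1r at 678799 to 814012 normalized counts and Tmem119 at 170161 to 288932. Libraries of the same number deviated together from their gate means across 12767 genes (correlation 0.35, 0.24 and 0.36 for numbers 1, 2 and 3, against -0.26 to -0.095 for libraries of different numbers), and the numbers were read as pairs from these values. The deviations of a gate cancel out, so positive values for the same number by themselves push those for different numbers negative. The contrast is thus partly arithmetic. Over the 40 genes alone the correlations of the same number were 0.50, 0.066 and 0.45, against -0.57 to 0.13 for different numbers, so pair 2 did not stand out among them. A fit with the replicate number as a block is given beside the fit without it where a member's call differs. Whether each library of a gate had its own mice is not in the labels, and p-values therefore cover the spread of these libraries alone. In bulk RNA of sorted cells, fewer cells of a kind and less RNA per cell cannot be told apart. BODIPY-high library 3 stood apart in markers of other cells: the 11 border macrophage markers summed to 86138 normalized counts there, against 23099 and 30472 in BODIPY-high libraries 1 and 2 and 2623 to 7655 in the BODIPY-low libraries.

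Most of the 40 genes had somewhat higher levels in BODIPY-high microglia, but for 37 of them the values of the gates overlapped. Without overlap, 2 members were higher and 1 lower, against 10.4% and 5.95% of all genes. The log2 change was above 0 for 33 of 40 genes, against 49.2% of all 12767 genes tested. Its median was 0.27 (range -0.45 to 1.40), against -0.0043 over all genes. No member passed limma at an adjusted p under 0.05 in either direction, where 2.03% of all genes were called higher and 0.0235% lower. Before adjustment, 6 members had p under 0.05 with higher and 0 with lower values, against 8.03% and 2.27% of all genes. edgeR called 0 members, against 1.74% of all genes as higher and 0.00783% as lower, and DESeq2 called 2 as higher and 0 as lower, against 3.73% and 0.207% of the genes it tested. With the replicate block in limma, 8 of 40 members were called higher and 0 lower, against 4.37% and 0.462% of all genes. The 8 were Oasl2, Ifitm2, Zbp1, Oas1a, Ifi204, Ifitm3, Oas2 and Rsad2. Leaving out a whole pair from that fit, which was added after seeing the data, gave 9 without pair 1, 3 without pair 2 and 0 without pair 3. Leaving out single libraries from the fit without the block gave 0 calls each time, where 0.117% to 2.12% of all genes were called higher. The median was then 0.11 without BODIPY-low library 1, 0.17 with BODIPY-high library 2 left out and 0.49 with BODIPY-high library 1 left out, and between 0.21 and 0.38 without each of the other 3 libraries.

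**Figure D1:**
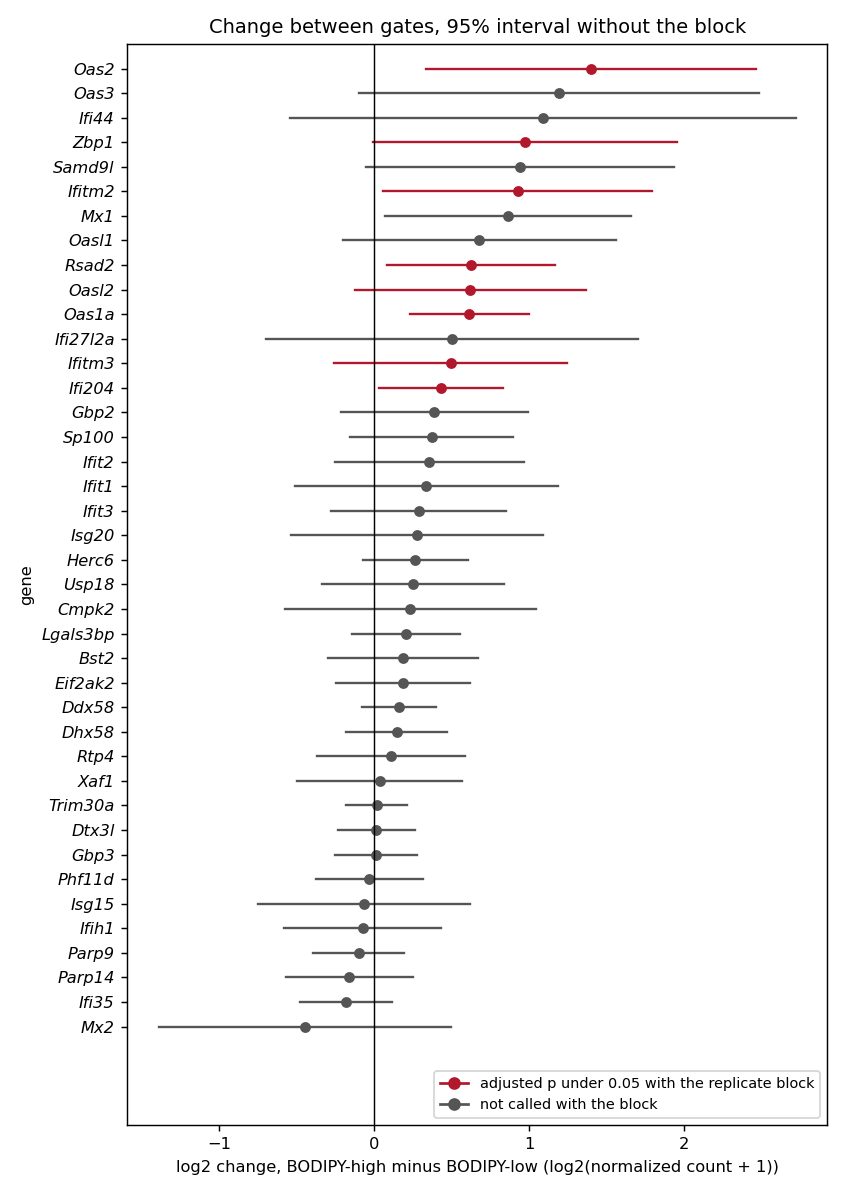
Each point is the log2 change of a gene between gates (BODIPY-high minus BODIPY-low, on log2(normalized count + 1), 3 libraries per gate), and each line is its 95% interval from limma without the block. Of 40 points, 33 lie to the right of 0, and the 8 genes in red passed limma with the replicate block.

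The 3 numbered pairs showed the difference to a similar extent. The median of the 40 genes was 0.24 in pair 1, 0.33 in pair 2 and 0.28 in pair 3 (log2, BODIPY-high minus BODIPY-low of the same number), while over all genes these medians lay between -0.0047 and 0.012. BODIPY-high was above BODIPY-low in 3 of 3 pairs for 24 members, against 20.7% of all genes, and below in 3 of 3 pairs for 1 member, against 19.0%. The largest difference fell in pair 1 for 9 members, in pair 2 for 17 and in pair 3 for 14, against 31.9%, 35.8% and 32.3% of all genes. The most common orders were pair 2, then 3, then 1 and pair 3, then 1, then 2, with 9 members each (22.5%, against 16.9% and 17.3% of all genes).

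The levels differed more between pairs than between gates for 29 of 40 members (72.5%), close to the 70.7% of all genes. There are more pairs than gates, which by itself favours a larger share for the pair. Libraries numbered 1 were the lowest of their gate, in both gates, for 26 of 40 members, against 18.3% of all genes. For number 2 this held for 1 member and for number 3 for 2 members, against 11.8% and 18.4%. BODIPY-low library 1 held the lowest of the 6 values for 24 members, against 19.6%, and BODIPY-high library 3 the highest for 19, against 22.4%. Of the variation of log2 values over the 6 libraries, the pair took a median of 65.5% and the gate 20.7% over the members, against 49.0% and 15.4% over all genes. With the pair taken out, the median standard error of a member's log2 change went from 0.24 to 0.13, and that of all genes from 0.18 to 0.14.

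**Figure D2:**
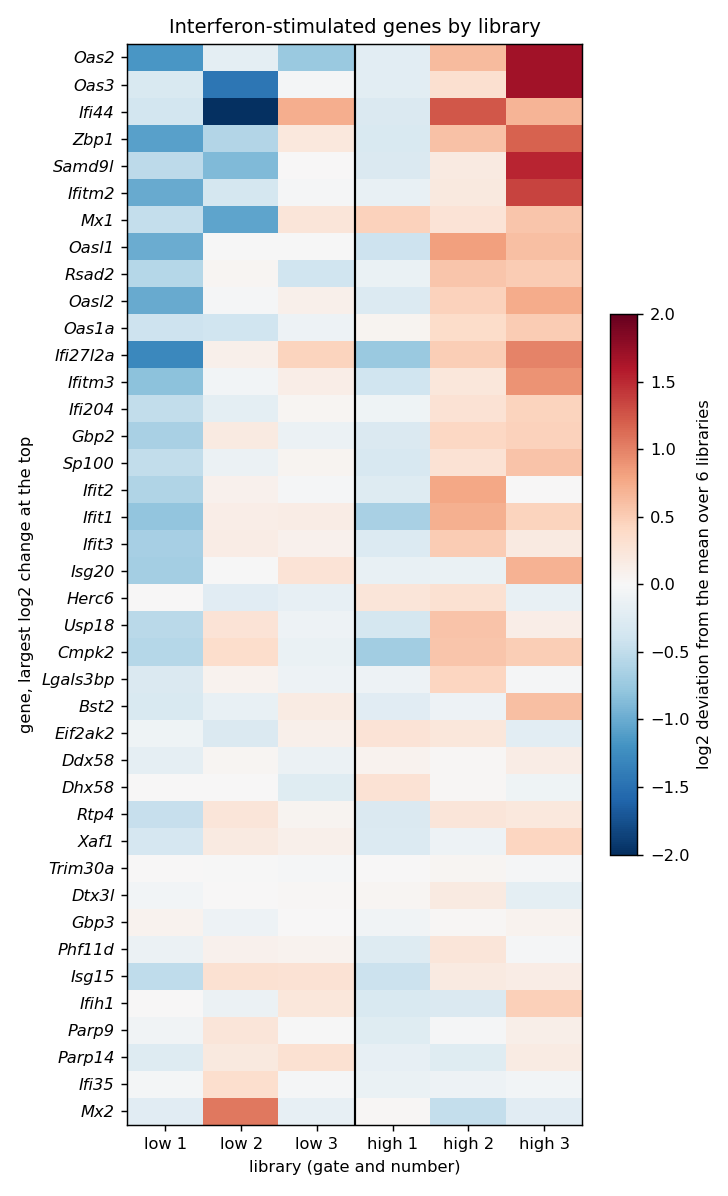
Rows are the 40 genes, ordered by log2 change, columns are the 6 libraries, and colour is the log2 deviation of a library from the gene's mean over all 6. The columns of library 1 are the lowest of their gate in both gates for 26 of 40 genes, and BODIPY-high library 3 holds the highest of the 6 values for 19.

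Summed markers of blood-derived myeloid cells were lowest in library 1 of each gate, and their direction between gates differed by pair. The 10 monocyte markers, all with reads in at least some libraries, summed to 10521, 25529 and 25241 normalized counts in BODIPY-low libraries 1, 2 and 3 and to 10263, 21625 and 33575 in BODIPY-high libraries 1, 2 and 3. The 9 neutrophil markers summed to 74701, 153983 and 158469 in the low gate and 85030.0, 106408 and 213954 in the high gate. Their sums were thus lowest in library 1 of each gate, as most of the 40 genes were. From the low to the high gate, both sums fell in pair 2 and rose in pair 3. In pair 1 the monocyte sum fell slightly and the neutrophil sum rose. The median of the 40 genes was positive in every pair, with 0.33 in pair 2. Of 8 monocyte markers tested 6 had a positive log2 change (median 0.34), and of 9 neutrophil markers 4 (median -0.0033). Of all genes 49.2% had a positive log2 change. Chil3 made up most of the monocyte sum, with 8994 of 10521 and 23118 of 25529 in BODIPY-low libraries 1 and 2. The median log2 deviation over each list was lowest in libraries 1 too (monocyte -0.73 and -0.21, neutrophil -1.15 and -0.84, low and high gate). This was not particular to these lists. The border macrophage (-2.55 and 0.93), choroid plexus (-3.79 and 2.55) and T and NK cell medians (-2.46 and 0.58) were also lowest in library 1 of each gate. Not every marker followed: Fn1 had 287, 207 and 247 in the low gate, and Csf3r 39300, 37944 and 33025 in the high gate. Of the monocyte markers Vcan was at 0 in 3 libraries, Ccr2 had 189 to 465 normalized counts and Ly6c2 had 358 to 1559. Of 8 monocyte markers tested 2 passed with the block and 0 without it, of 9 neutrophil markers 2 and 0, and of 11 border macrophage markers 11 and 9, all as higher. Of all genes 4.37% were called higher with the block and 2.03% without it. The 8 choroid plexus markers summed to 308 to 2311 in the low gate and 39831 to 52404 in the high gate, but 5 of these 8 (and 2 of the border macrophage markers) met the minimum of 10 normalized counts in 3 libraries through the high gate alone, which favours a call. Of 8 astrocyte markers tested 6 were called higher with the block and 4 without it, of 7 oligodendrocyte markers 3 and 2, of 4 mural markers 1 and 1, and of 2 T and NK cell markers 1 and 1, some of them through the high gate alone as well. The T and NK cell marker called was Cd4, highest in BODIPY-high library 3 (1473). In the same list Nkg7 did not pass (adjusted p = 0.881 in limma with the block), and Cd3d, at 0 to 6.44 normalized counts, was not tested. The endothelial, plasmacytoid dendritic and B cell lists had 0 calls, and so had the 10 microglial markers, all with a negative log2 change (median -0.20). The part of these cells in the interferon-stimulated genes was not tested.

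**Figure D3:**
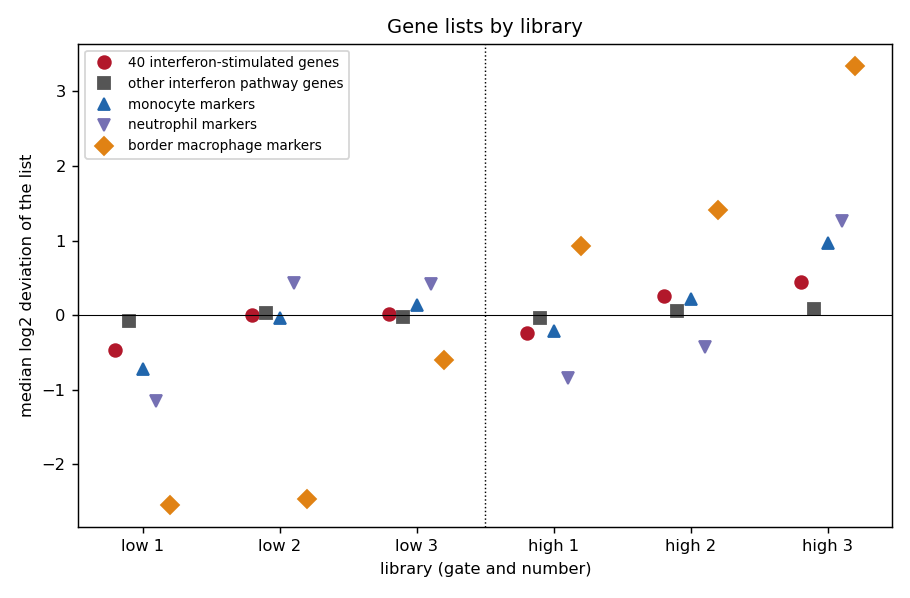
Each symbol is the median, over the tested genes of a list, of the log2 deviation of a library from the gene's mean over the 6 libraries. The 40 interferon-stimulated genes go from -0.47 in BODIPY-low library 1 to 0.45 in BODIPY-high library 3. These libraries have the lowest and highest medians of every other list drawn too. Of the lists not drawn, the oligodendrocyte, plasmacytoid dendritic and T and NK cell lists have the same extremes.

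The promoters are shown for genes that passed with the block and for genes that did not, because the same response element stood in both. RefSeq promoters (build GRCm38.p6, 250 bases before to 50 after the start of transcription) were found for 29 of the 40 genes. The ISRE core was searched as 2 copies of GAAA with any 2 bases between them, on either strand, with overlapping matches counted. It was in 15 of the 29 (51.7%), against 3.88% of 9745 tested genes with an entry and 3.44% of all 32851 promoters. Of members that passed with the block 4 of 5 with an entry held it, and of the others 11 of 24. The longer form, the core followed by a C, was in 41.4% of members and 1.12% of tested genes. Capitals mark the ISRE core or its reverse complement in windows of at most 80 bases, written on the strand of the gene and ending before its start.
Oas1a (chr5:120907526-120907577, minus strand): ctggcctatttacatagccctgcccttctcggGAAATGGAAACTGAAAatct
Ifitm2 (chr7:140955963-140956042, minus strand): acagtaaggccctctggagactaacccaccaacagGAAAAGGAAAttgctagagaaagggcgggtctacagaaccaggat
Rsad2 (chr12:26456528-26456607, minus strand): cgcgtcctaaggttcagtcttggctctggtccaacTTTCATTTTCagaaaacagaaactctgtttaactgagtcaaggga
Isg15 (chr4:156200846-156200925, minus strand): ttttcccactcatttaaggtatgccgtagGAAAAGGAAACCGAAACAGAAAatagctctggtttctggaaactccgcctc
Ifit1 (chr19:34640760-34640838, plus strand): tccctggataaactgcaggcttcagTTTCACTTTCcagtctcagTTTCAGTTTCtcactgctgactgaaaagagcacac
Ifit3 (chr19:34583355-34583434, plus strand): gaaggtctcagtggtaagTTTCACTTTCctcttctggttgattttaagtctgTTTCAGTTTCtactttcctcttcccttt
Gbp3 (chr3:142559967-142560043, plus strand): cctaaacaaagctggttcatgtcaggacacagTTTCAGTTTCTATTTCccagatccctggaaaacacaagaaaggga
Trim30a (chr7:104465194-104465264, minus strand): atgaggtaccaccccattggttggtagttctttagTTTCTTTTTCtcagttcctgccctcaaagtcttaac
Oas1a, Ifitm2 and Rsad2 passed with the block, and the other 5 genes did not. Isg15 carried 3 overlapping matches and had a log2 change of -0.07, while Ifitm2 carried 1 match and had a log2 change of 0.92. In Ifitm3, which also passed with the block, both matches lay after the start, and the entry of Oasl2 held none. A match describes the letters of a window and shows no binding.

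The 2′-5′ oligoadenylate synthetase (OAS) family, whose products activate the RNA-degrading enzyme RNase L, had the largest median change of the groups (0.68). All 5 tested members had positive log2 changes, against 49.2% of all genes. With the block 3 passed, all as higher, against 4.37% of all genes. Oas1a (chromosome 5, 120896256 to 120907521) had 499, 505 and 619 normalized counts in BODIPY-low libraries 1 to 3 and 689.7, 858 and 946 in the BODIPY-high libraries. All 3 BODIPY-high values lay above all 3 BODIPY-low values, which among the members held only for Oas1a and Mx1 (10.4% of all genes), while Ifi35 was the 1 member with all BODIPY-high values below (5.95%). The log2 change of Oas1a was 0.61 ± 0.17 (SE), and it passed DESeq2 (adjusted p = 0.0351) and limma with the block (0.0262), but not limma without it (0.158).

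Oas2 (chromosome 5, 120730333 to 120749853) had the largest log2 change of the members, 1.40 ± 0.47 (SE). It had 68.0, 133 and 91.6 normalized counts in the low gate and 132, 237 and 493 in the high gate. The value of BODIPY-high library 1 lay just below that of BODIPY-low library 2, and BODIPY-high library 3 was far above the rest. Without BODIPY-high library 3 the log2 change was 0.91, below the 1.02 of Ifi44 in the same fit. Oas2 passed DESeq2 (adjusted p = 0.0215) and limma with the block (0.0377), and not limma without it (0.286). Its ratio of means was 2.95, and Oas2 and Oas3 were among the 3 members of lowest level per kb of exon in the low gate (21.9 and 6.43 normalized counts per kb). Oas3 had 51.6, 22.7 and 62.1 in the low gate and 55.1, 79.8 and 206 in the high gate, which overlapped, and did not pass with the block (adjusted p = 0.154). The OAS-like gene Oasl2 (chromosome 5, 114896936 to 114912234) had 599, 1186 and 1292 in the low gate against 993, 1664 and 2020.4 in the high gate. Its differences within pairs were close to each other (0.73, 0.49 and 0.64, log2), although the level in pair 1 was far below the others in both gates. It had the lowest adjusted p of the members with the block (0.00849, log2 change 0.62 ± 0.11, SE) and did not pass without it (0.598, SE 0.33). Leaving out BODIPY-low library 1 took its log2 change to 0.27, and leaving out BODIPY-high library 3 took it to 0.40. Oasl1, which limits translation of Irf7, was higher in 3 of 3 pairs and did not pass with the block (0.0961).

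Among the 6 sensors of nucleic acids, 5 had positive log2 changes and 2 passed with the block. Of all genes 49.2% were positive and 4.37% were called higher with the block. Zbp1 (chromosome 2, 173206612 to 173218923), which binds Z-form nucleic acids and can start necroptosis, had 104, 146 and 257 normalized counts in the low gate and 178, 334 and 502 in the high gate. In each pair the high value was the higher, and pair 1 was the lowest of each gate (log2 change 0.97 ± 0.43, SE; limma adjusted p = 0.49, and 0.024 with the block), and without BODIPY-high library 3 its log2 change was 0.63. Ifi204 (chromosome 1, 173747293 to 173766943), of the DNA-sensing PYHIN family, had 1055, 1286 and 1517 against 1389, 1802 and 2014. Its differences were 0.40, 0.49 and 0.41 in pairs 1, 2 and 3, and the pair and the gate took 50.5% and 49.1% of its variation (limma adjusted p = 0.434, and 0.0313 with the block). The sensors of viral RNA did not pass. Ddx58, which encodes RIG-I, had a log2 change of 0.16 (95% interval -0.08 to 0.40), and Dhx58, which encodes LGP2, of 0.14 (-0.18 to 0.47). Ifih1, which encodes MDA5, had 722, 662 and 848 in the low gate and 584, 592 and 1003 in the high gate, lower in pairs 1 and 2 and higher in pair 3 (adjusted p = 0.842 with the block). Eif2ak2, the kinase PKR, which halts translation on sensing double-stranded RNA, had a log2 change of 0.18 (-0.25 to 0.62) and was lower in BODIPY-high only in pair 3.

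Of the 3 membrane proteins that hinder viral entry or release, 2 passed with the block, against 4.37% of all genes as higher. Ifitm2 (chromosome 7, 140954837 to 140955987) had 338, 536 and 669.7 normalized counts in the low gate and 616, 779 and 1737 in the high gate. BODIPY-high library 3 was far above every other library. The log2 change was 0.92 ± 0.38 (SE; limma adjusted p = 0.439, and 0.0112 with the block), and the ratio of means was 2.03. Without BODIPY-high library 3 the log2 change of Ifitm2 was 0.48. Its neighbour Ifitm3 (chromosome 7, 141009586 to 141010770), which blocks fusion of virus in endosomes, had 916, 1545 and 1771 against 1227, 1888 and 3011. It was higher in 3 of 3 pairs, with the largest difference, 0.77, in pair 3 (limma adjusted p = 0.715, and 0.0356 with the block). Its log2 change of 0.49 became 0.21 when BODIPY-low library 1 was left out, 0.81 when BODIPY-high library 1 was, and 0.16 when BODIPY-high library 3 was. Both genes had their highest value in BODIPY-high library 3, where monocyte, neutrophil and border macrophage markers summed to their highest values as well. Bst2, tetherin, which holds budding virus on the cell surface, went from 1817 to 2511 in the low gate and 1916 to 3393 in the high gate and did not pass with the block (0.388). Ifitm2 shared 40.9% of its exon length with another annotated gene, Gm45717, on the same strand, so reads there may have been counted for either or neither.

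The product of Ifit1 binds RNA with foreign ends. The 3 IFIT genes all had positive log2 changes (0.29 to 0.36), against 49.2% of all genes. They were higher in 3 of 3 pairs, against 20.7% of all genes, and did not pass limma with the block (adjusted p of 0.145 to 0.263). Without BODIPY-low library 1 the log2 changes of Ifit1, Ifit2 and Ifit3 were 0.030, 0.15 and 0.024, and without BODIPY-high library 2 they were 0.066, 0.056 and 0.10. Ifit1 (chromosome 19, 34640871 to 34650009) had 325, 613 and 618 normalized counts in the low gate and 354, 913 and 765 in the high gate. Library 1 of each gate lay far below the others, and the pair took 87.6% of the variation against 9.50% for the gate. Ifit2 had 1213 to 1952 in the low gate and 1539.6 to 3147 in the high gate, and the pair of libraries 2 differed most (0.69, log2). Ifit3 had the fourth highest level per kb of exon among the members in the low gate (1130.2 normalized counts per kb). Its lowest values were in libraries 1 as well, 1329 and 1754.

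A group of 8 genes was listed under inhibition of replication, a loose heading that does not describe the role of each. Of these, 7 had positive log2 changes, against 49.2% of all genes. Rsad2 alone passed with the block, where 4.37% of all genes were called higher. Rsad2 (chromosome 12, 26442746 to 26456452) encodes viperin, which makes a chain-terminating nucleotide and sits on the endoplasmic reticulum and lipid droplets. It had 345, 527 and 392 normalized counts in the low gate and 469, 759 and 732 in the high gate, higher in 3 of 3 pairs, with the gates overlapping (log2 change 0.62 ± 0.24, SE; limma adjusted p = 0.382, and 0.0473 with the block). Cmpk2, the neighbouring kinase that supplies the substrate of viperin, had 342, 653 and 467 against 314, 748 and 722 (adjusted p = 0.536 with the block). Samd9l, a translation inhibitor, had 213, 165 and 307 in the low gate and 251, 346 and 882 in the high gate (0.94 ± 0.44, SE). It missed the threshold with the block (adjusted p = 0.0571), and its highest value was again in BODIPY-high library 3. Ifi27l2a had 106, 282 and 358 against 157, 369 and 525, so the pair took 89.5% of its variation. The exonuclease gene Isg20 had 82.3 to 160.0 against 119 to 216, and Xaf1, which promotes cell death, 328 to 473 against 343 to 559, each higher in 2 of 3 pairs. Ifi44 had the fewest reads of the members, with 8 in BODIPY-low library 2 (exact 95% counting interval 3.45 to 15.8), and its log2 change of 1.09 had an interval of -0.55 to 2.72. Ifi35 (chromosome 11, 101448407 to 101458698), with 1286, 1668 and 1308 in the low gate and 1213, 1236 and 1276 in the high gate, was the 1 member lower in 3 of 3 pairs. Its log2 change was -0.18 (interval -0.48 to 0.11; limma adjusted p = 0.741, and 0.451 with the block).

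Of the 4 antiviral GTPases 3 had positive log2 changes, against 49.2% of all genes. With or without the block 0 passed, where 4.37% and 2.03% of all genes were called higher. Mx1 (chromosome 16, 97447035 to 97462907), whose intact product traps viral ribonucleoproteins but whose allele in C57BL/6 mice is known to give no functional protein, had 98.7, 66.0 and 164 normalized counts in the low gate and 191, 168 and 204 in the high gate, without overlap. Its log2 change was 0.86 ± 0.35 (SE; limma adjusted p = 0.421, and 0.123 with the block). Its paralog Mx2 had 68.0, 167 and 70.5 against 81.1, 56.8 and 68.1. The lower mean of the high gate came from BODIPY-low library 2, and the log2 change was -0.45 (interval -1.39 to 0.49) with that library and -0.03 without it. The guanylate-binding proteins, which attack the vacuoles of pathogens, were Gbp2, with a log2 change of 0.39 and higher in 3 of 3 pairs, and Gbp3, with 0.01 in limma (interval -0.25 to 0.28) and -0.00016 in edgeR. Neither passed with the block (adjusted p of 0.16 and 0.972).

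**Figure D4:**
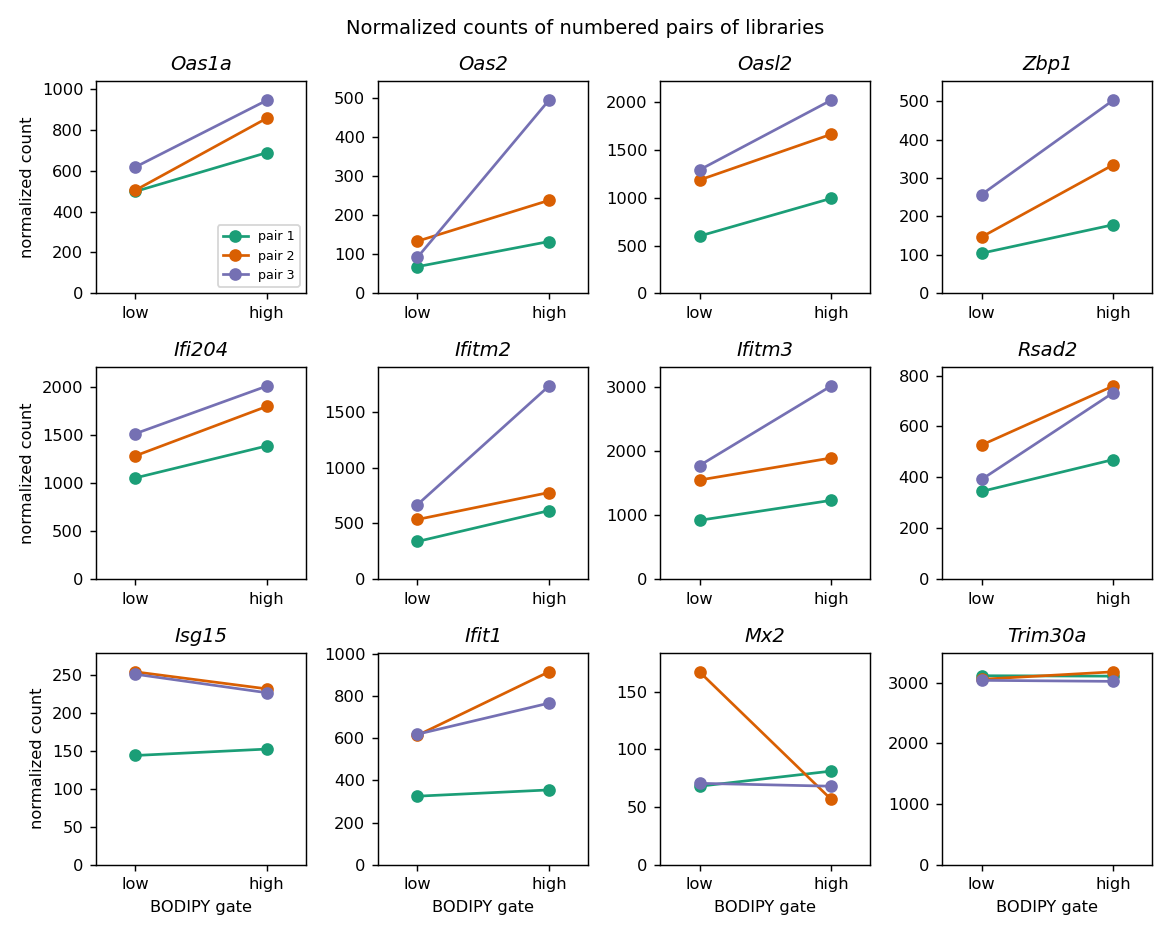
Normalized counts (vertical axis, from 0) of 12 genes in BODIPY-low and BODIPY-high libraries, with a line for each numbered pair. The first 8 genes, which passed limma with the replicate block, rise in 3 of 3 pairs, with pair 1 lowest in each gate. Isg15, Mx2 and Trim30a do not rise in 3 of 3 pairs, although Isg15 also has pair 1 lowest in each gate.

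Of the 4 genes around ISG15 and ubiquitin-like conjugation, 0 passed with or without the block. Of all genes 4.37% and 2.03% were called higher in these fits. Isg15 (chromosome 4, 156199424 to 156200818), a ubiquitin-like protein attached to other proteins after interferon and often used to mark the response, had 144, 254 and 251 normalized counts in the low gate and 152, 231 and 226 in the high gate. Values of the gates overlapped, and library 1 was the lowest in each. The pair took 96.6% of its variation and the gate 0.976%, and its log2 change was -0.07 with an interval of -0.75 to 0.62 (limma adjusted p = 0.974, and 0.911 with the block). Usp18, the protease that removes ISG15 and blunts the receptor, had 832, 1454 and 1122 against 950.0, 1802 and 1328, higher in 3 of 3 pairs (0.237 with the block). Herc6, the ISG15 ligase of the mouse, was higher in 3 of 3 pairs (log2 change 0.26, interval -0.07 to 0.60). Trim30a, a negative regulator of NF-kB, had the narrowest interval of the members (-0.18 to 0.21), with 3114, 3056 and 3038 against 3107, 3178 and 3021.

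The PARP and chromatin group had a median log2 change of -0.03, and 2 of its 5 members were positive, against 49.2% of all genes. Dtx3l (chromosome 16, 35926511 to 35939151), a ubiquitin ligase, and its partner Parp9 (chromosome 16, 35938470 to 35972605) overlap head to head. Dtx3l had 3689, 3881 and 3914 normalized counts in the low gate and 3938, 4351 and 3365 in the high gate. Parp9 had 2469, 3059.8 and 2569 against 2188, 2557 and 2823. Their 458 shared exon bases lie on opposite strands, and the Smart-Seq v4 and Nextera XT chemistry keeps no strand, so reads from there cannot be told apart. Parp14, an ADP-ribosyl transferase, had 794, 1088 and 1176 against 851, 804 and 1064 (log2 change -0.16, interval -0.57 to 0.25). Phf11d had 961 to 1106 in the low gate and 868 to 1232 in the high gate (log2 change -0.03). The nuclear body gene Sp100 had 860.2, 1115 and 1265 against 975.0, 1488 and 1808, with a log2 change of 0.37 and higher values in 3 of 3 pairs (adjusted p = 0.101 with the block). Lgals3bp, a secreted galectin-binding protein, had the highest level per kb of the members (8478 normalized counts per kb of exon in the low gate, with Bst2 next at 2347). It had 21204, 27079.5 and 24129 against 24083, 34645 and 25427 (log2 change 0.20, interval -0.14 to 0.55). Rtp4, a chaperone of membrane receptors, had 920.5 to 1501 against 1032 to 1507 (log2 change 0.11, interval -0.37 to 0.58).

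For the rest of the pathway a list of 143 other genes was used, of which 113 were tested. Of these, 62 had a log2 change above 0, against 49.2% of all genes, with a median of 0.02, against -0.0043. Limma without the block called 0 in either direction, against 2.03% of all genes as higher and 0.0235% as lower. At an unadjusted p under 0.05, 15 were higher and 3 lower, against 8.03% and 2.27% of all genes. The alternative edgeR called 0, and DESeq2 called 6 as higher, against 1.74% and 3.73% of the genes each tested. With the block 10 were higher, 3 of them past the minimum count through the high gate alone, and 1 was lower. Of all genes 4.37% were called higher and 0.462% lower in that fit. Interferon beta itself (Ifnb1) had 1 read in BODIPY-low library 2, 3 in BODIPY-high library 2 and 0 in the other 4 libraries. Of the 21 genes of the ligand list, Ifnb1 was the only 1 found by symbol in the deposited table. The receptor chain gene Ifnar1 had 8232, 8597 and 7489 normalized counts in the low gate and 9397, 9041 and 8771 in the high gate, without overlap (log2 change 0.16 ± 0.09, SE; adjusted p = 0.27 with the block). Ifnar2 had 15707 ± 668 and 15299 ± 739 (mean ± SD, n = 3) in the low and high gates, and the interferon gamma receptor gene Ifngr1 had 88614 ± 9177 and 79847 ± 14182, and neither passed. Of 9 receptor and kinase genes, 15 upstream genes of interferon induction and 9 negative regulators, 0 passed with or without the block, and Socs1 had 143 normalized counts in both gates.

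Among 10 transcription factors, 1 passed with the block, as higher, against 4.37% of all genes. Irf7, which interferon induces and which drives interferon alpha genes, had 517, 856 and 792 normalized counts in the low gate and 789.8, 1351 and 1434 in the high gate. It was higher in 3 of 3 pairs, with pair 1 lowest in each gate (log2 change 0.71 ± 0.26, SE; limma adjusted p = 0.361, and 0.00707 with the block). Stat2 (1392 ± 189 against 1666 ± 426, mean ± SD, n = 3) and Irf9 (4012 ± 207 against 3726 ± 463) did not pass (adjusted p of 0.383 and 0.572 with the block). Irf3 had a log2 change of -0.04 and the macrophage factor gene Irf8 of -0.15, and neither passed. Tmem173, the adaptor STING, had 38209, 38081 and 32699 against 34412, 30226 and 25018, lower in 3 of 3 pairs (log2 change -0.29; 0.0577 with the block).

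Of 70 other interferon-induced genes tested, 48 had a positive log2 change, against 49.2% of all genes. With the block 9 were called higher and 1 lower, against 4.37% and 0.462% of all genes. Of the 9, Mndal, Ifi203 and Gbp8 met the minimum of 10 normalized counts in 3 libraries through the high gate alone, so their calls are partly set by that filter. The PYHIN genes Mndal and Ifi203 had at most 22.1 normalized counts in the low gate and 48.0 to 257 and 49.0 to 229.9 in the high gate (adjusted p of 0.0024 and 0.00282 with the block). Mnda, of the same family, went from a mean of 136 ± 44.7 (SD, n = 3) to 308 ± 176. The guanylate-binding protein genes Gbp4, Gbp6, Gbp8 and Gbp9 also passed with the block. Gbp4 had 24.1, 73.2 and 62.1 against 76.1, 133 and 195, Gbp6 had 31.8, 19.6 and 59.0 against 68.1, 235 and 372, and Gbp8 had 0 to 3.16 against 16.0 to 122. Gbp9 had a far smaller spread, with 889, 928 and 1000.3 against 1321, 1308 and 1297. The immunity-related GTPase gene Ifi47 had 125, 159.8 and 239 against 275, 413 and 1014, and Oas1g 30.7, 28.9 and 49.5 against 66.1, 137 and 162. In Mndal, Ifi203, Mnda, Gbp4, Gbp6, Gbp8, Ifi47 and Oas1g the highest value was that of BODIPY-high library 3, where border macrophage markers peaked as well, and the part of those cells was not tested. The high-affinity immunoglobulin receptor gene Fcgr1 was the 1 gene called lower, with 15792, 14214 and 15307 against 12890.0, 12099.6 and 12037 (adjusted p = 0.0405 with the block). The chemokine gene Cxcl10 had means of 576 ± 80.6 and 581 ± 224 in the low and high gates (SD, n = 3; limma adjusted p = 0.974).

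The calls with the block depended on which pairs were fitted, as shown by fits added after seeing the data. Without pair 1, 9 members were called higher: Oas3 and Samd9l joined and Ifi204 left. Without pair 2, Oasl2, Ifitm2 and Ifitm3 were called, and without pair 3, 0 members passed (lowest adjusted p = 0.0679), although the median log2 change was 0.30. In these 3 fits 5.50%, 2.71% and 2.19% of all genes were called higher, and 0.627%, 0.258% and 0.164% lower. The Ifit, Oas1, Ifitm, Gbp, Mx, Trim30, Phf11 and Ifi200 genes have close paralogs, and how the counting treated reads that match several copies is not given in the sources used here, so their values are uncertain to that extent.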

How the data were processed

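RNA of sorted hippocampal microglia was sequenced in 6 libraries, 3 BODIPY-low and 3 BODIPY-high. Per the series' design text and the submitters' processing notes, reads were checked with FastQC 0.11.4, aligned with STAR 2.5.3a to mm10 (the notes list mm9 as well), counted per gene and processed with DESeq2. Which annotation and strand were counted is not given in the sources used here. What the authors deposited were normalized counts, a signal in which each read count is divided by a size factor per library. Every value was a whole multiple of 1 step per library within 0.05 of a read, so whole reads were recovered for 100% of values, and edgeR 4.0.16 and DESeq2 1.42.0 were run on them as alternatives.

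The main test was limma 3.58.1 (R 4.3.3, two-sided, trend) on log2(normalized count + 1), BODIPY-high minus BODIPY-low, over 12767 of 15912 genes with at least 10 normalized counts in at least 3 libraries. Fold changes of low genes are understated on that scale. P-values were adjusted over all genes tested by Benjamini and Hochberg, and a gene was called at an adjusted p under 0.05. The script was tested on simulated data. Other settings were pseudocounts of 0.5 and 5, no filter, the replicate number as a block, and leaving out each library. Same-numbered libraries deviated together over all 12767 genes (every correlation above 0.1), so the block was taken as a pairing seen in the data, since the labels do not state one.

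Members and gene lists were chosen with earlier results of these data known. Values by library are given for members called by a fit, the 6 of largest and the 6 of lowest change with a mean of at least 50, the 4 of highest level, and others of use to a role group. Other pathway genes named are those called in limma with or without the block and a fixed set of core genes, of which 1 is not reported here. The marker lists were microglia, choroid plexus, border macrophage, monocyte, neutrophil, endothelial, mural, astrocyte, oligodendrocyte, plasmacytoid dendritic, T and NK cell, and B cell. Coordinates are GRCm38 (GENCODE M21) and promoters are RefSeq (GRCm38.p6). Reads are not independent molecules, so counting intervals cover counting error only.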

Additional observations from a re-analysis of the deposited data

How the results depend on the processing

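Without the block, limma called 0 of the 40 interferon-stimulated genes in either direction with pseudocounts of 0.5 and 5, with no filter and without each single library, as did edgeR, where 32 had a positive log2 change against 33 in limma. DESeq2 called 2 as higher. With the replicate block, taken as a pairing, 8 were called higher and 0 lower, and the block changed the call of no other member. In fits of the block without a whole pair, chosen after seeing the data, 0 to 9 were called higher (9 without replicate 1, 3 without replicate 2). Over the other pathway genes DESeq2 called 6 higher, and the block called 10 higher and 1 lower. Without a single library 0 to 2 were called higher (2 without BODIPY-low replicate 3, 1 without BODIPY-high replicate 1). The block without a pair gave 3 to 10 higher (6 without replicate 2) and 0 to 1 lower. The median log2 change of the 40 genes was 0.27 and ran from 0.11 to 0.49 without a single library, with 29 to 36 genes positive, and from 0.23 to 0.30 in the block without a pair.

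Of all genes, 259 were called higher and 3 lower in limma. DESeq2 gave 523 and 29 over 14010 genes, edgeR 222 and 1, and the block 558 and 59. Without a single library 15 to 271 were higher and 0 to 2 lower, and the block without a pair gave 279 to 702 and 21 to 80.

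The sign turned in some settings for 12 members. For Gbp3 the log2 change was -0.00016 in edgeR. Without a single library the lowest and highest log2 changes were Ifih1 -0.33 to 0.059, Bst2 -0.069 to 0.34, Gbp3 -0.033 to 0.053, Isg20 -0.0048 to 0.48, Xaf1 -0.17 to 0.18, Ifi27l2a -0.023 to 0.99, Isg15 -0.33 to 0.13, Trim30a -0.0024 to 0.034, Dtx3l -0.072 to 0.11, Phf11d -0.16 to 0.091 and Rtp4 -0.099 to 0.28. In the block without a pair the values of opposite sign were Ifih1 0.041, Mx2 0.099, Gbp3 -0.041 and -0.013, Xaf1 -0.11, Trim30a -0.0055, Dtx3l -0.026 and -0.062, Phf11d 0.026 and 0.0048. The cause of these changes was not tested. Fewer samples enter the fits without a library or pair. Ifi44, with 8 reads in 1 library, is the member whose depth limits it most.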
